A study of Mus musculus with 80 samples.

Results

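The response of mouse whole blood to 2 Gy given acutely was set against its response to 2 Gy given at a variable dose rate (VarDR). The quantity was a difference of differences at day 2, the acute response (acute 2 Gy minus acute sham) minus the VarDR response (VarDR 2 Gy minus VarDR sham). It used 23 of the 80 libraries of the study, all from female C57BL/6 mice: 6 acute 2 Gy (0.73 Gy/min), 6 acute sham, 5 VarDR 2 Gy (1 Gy/day) and 6 VarDR sham. The study delivered radiation in a profile that imitates internal radioactive caesium, and its acute mice received a matching total dose. The VarDR dose accumulated over the 2 days, so the rate of delivery and the time since most of the dose was received differed together and cannot be told apart. Of 21124 genes tested, 335 passed the threshold in the difference, and 271 met a rule for similar responses in both arms.

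Whole blood holds RNA from reticulocytes, the young red cells that still carry globin and heme-synthesis transcripts, from platelets and from white cells. Ionizing radiation breaks DNA and activates the transcription factor p53, which switches on genes of cell cycle arrest, apoptosis and repair. B lymphocytes and the red cell precursors of bone marrow are known for their radiosensitivity, and the marrow loses its ability to release new reticulocytes after irradiation. In bulk blood, fewer cells of a type and less RNA per cell cannot be told apart.

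Levels are the authors' normalized read counts after every column was rescaled to the same median of ratios, which sets the typical gene as unchanged. Day 2 columns summed to between 28.9 and 77.7 M (M, 1e6 normalized read counts) as deposited, with 17114 to 26051 genes above 0. The depth in reads is unknown, and p-values measure the spread between the libraries of a group. Markers of blood cells were present: all 24 B cell, 24 T cell, 16 mature neutrophil and 22 platelet genes were above 0 in each of the 23 libraries. The 10 lung markers held at most 0.0091% of the signal. Acute sham replicate 1 stood apart, with a median Pearson r of 0.887 to the other acute shams on log2 values, against 0.918 to 0.971 for the other 22 libraries within their groups. VarDR sham replicate 6 was far from the other VarDR shams in 6 of the gene values described here. Without both libraries 367 genes passed in the difference. Liver markers held over 0.5% of the signal in 3 acute 2 Gy libraries and 1 acute sham, but in 0 VarDR libraries. Their range was 0.0209 to 4.02% in acute 2 Gy, 0.00734 to 1.36% in acute sham, 0.00771 to 0.0381% in VarDR 2 Gy and 0.00364 to 0.0488% in VarDR sham, with 20 to 25 of 25 genes above 0. The liver genes had a median difference of 3.29 (log2) and 0 of 25 passed. The part of liver RNA in the results was not tested, but counts without those 4 libraries, and those of other days over the same limit, are given below.

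More genes passed after acute than after VarDR 2 Gy, and most genes that differed had the lower response in the acute arm. Of the 335 genes (1.59% of those tested), 294 had a lower acute than VarDR response (1.39%) and 41 a higher one (0.194%). The fit was limma on log2(value + 1), a scale that understates the change of low genes, with Benjamini-Hochberg adjustment and an adjusted p under 0.05. The lower responses were also the larger ones: 279 exceeded 2-fold and 76 exceeded 8-fold, against 23 of the higher ones over 2-fold. Each arm on its own called 3131 genes after acute 2 Gy (14.8% of genes tested; 1555 or 7.36% higher, 1576 or 7.46% lower) and 690 after VarDR 2 Gy (3.27%; 533 or 2.52% higher, 157 or 0.743% lower). The VarDR count was 452 without VarDR 2 Gy replicate 1. Of the 335, 26 were in the red cell or haemoglobin lists, 22 in the B cell or MHC class II lists and 58 in any list used here. Of the 294 lower genes, 268 had passed in the acute arm alone and 26 in both arms with the same sign. Of the 41 higher genes, 30 had passed in the acute arm alone, 9 in both arms and 2 in neither. No gene passed in both arms with opposite signs. The median difference over all genes was 0.08 on the log2 scale, against 0.05 for the acute and -0.04 for the VarDR response.

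The number of genes with a higher acute response rested on single libraries and on the scaling. It was 93 without acute 2 Gy replicate 6, 26 without acute 2 Gy replicate 1 and 26 without VarDR 2 Gy replicate 5. After quantile normalization 119 genes were higher and 366 lower, and on the deposited scale 2213 were higher and 225 lower. On that scale the acute 2 Gy libraries exceeded the acute shams by 1.39-fold over the genes detected everywhere. Without the libraries rich in liver markers 46 genes were higher and 202 lower.

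The shams of the arms were compared as a background. limma called 0 of 21124 genes between acute sham and VarDR sham, and 514 (2.43%) had an unadjusted p under 0.05. Of the 335 difference genes, 14 were among these, and in 6 the gap between the shams exceeded the gap between the irradiated groups.

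**Figure D1:**
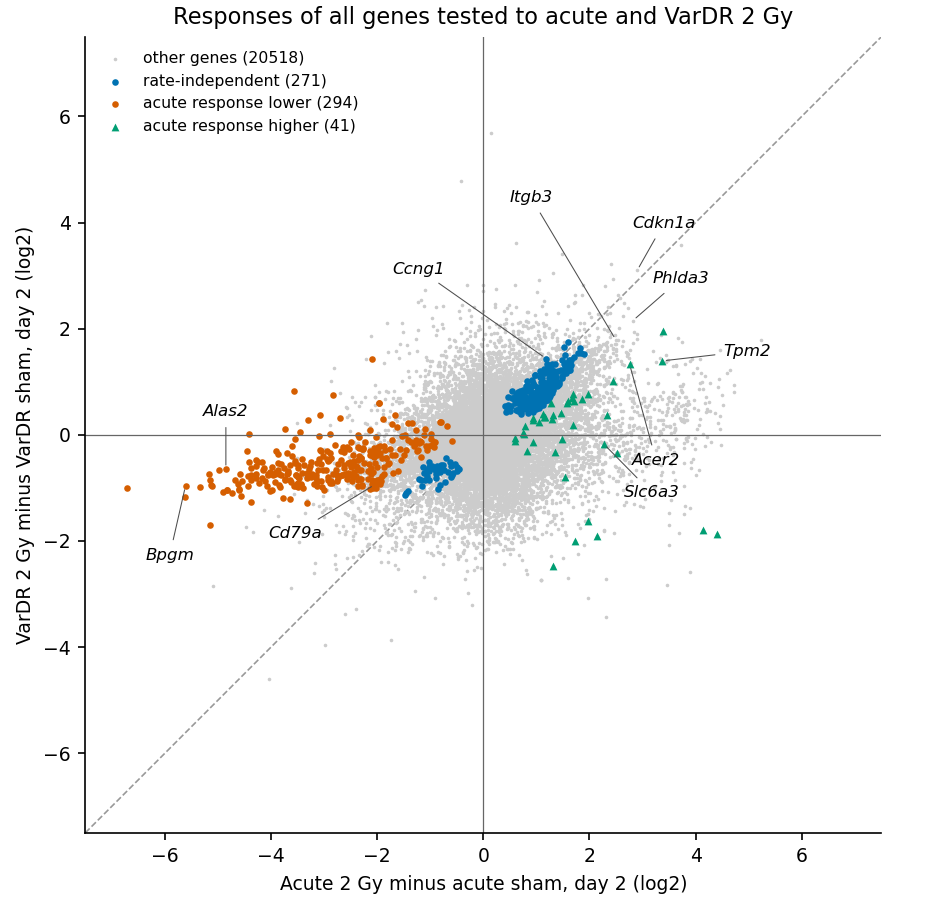
Each point is a gene tested, with its acute response on the horizontal and its VarDR response on the vertical axis (log2 differences from sham at day 2), and the dashed line marks equal responses. The 294 genes with a lower acute response (orange circles) spread along the horizontal axis to below -6 while their VarDR responses stay nearer 0. The 271 genes with similar responses (blue) lie within 2-fold of the line but not all on it, and the 41 with a higher acute response are green triangles.

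Red cell and haemoglobin genes had lower acute responses by wide margins. These genes encode the globin chains, the enzymes of heme synthesis, the membrane skeleton and the blood group antigens of red cells. Of 29 red cell genes tested, 20 had a lower acute than VarDR response and 0 a higher one, with a median difference of -2.60 (log2) against 0.08 over all genes. In the acute arm 23 fell and 3 rose (median -3.24). In the VarDR arm 0 passed as lower and 2 as higher (median -0.65). Of 9 haemoglobin genes, 6 had a lower acute response (median difference -3.47). After acute 2 Gy 7 fell, and after VarDR 2 Gy 0 passed (median -0.78). Over all genes, 1.39% were lower and 0.194% higher in the difference. Of all genes, 7.46% fell and 7.36% rose after acute 2 Gy, and 0.743% fell and 2.52% rose after VarDR 2 Gy. The 3 red cell list members that rose after acute 2 Gy were the transcription factors Gata1, Nfe2 and Tal1, which are also active in megakaryocytes, and the 2 that rose after VarDR 2 Gy were Tal1 and the water channel Aqp1. Nfe2, Tal1 and Aqp1 were picked after their values were seen.

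Alas2 (chromosome X, 150547375 to 150570638, GRCm38) encodes the erythroid enzyme that sets the rate of heme synthesis. Its level was 19293, 34649 and 46861 (lowest, median and highest of 6) in acute 2 Gy and 661949, 822472 and 2287023 in acute sham. In VarDR 2 Gy it was 656860, 413046, 398419, 548177 and 328058, and in VarDR sham 416873, 544791 and 1992009 (lowest, median and highest of 6). Every acute 2 Gy library lay below every library of the other groups, while VarDR 2 Gy overlapped its shams. The acute response was -4.85 ± 0.33 (log2 ± standard error, adjusted p = 6.05e-20) and the VarDR response -0.65 ± 0.34 (adjusted p = 0.422). The difference was -4.20 ± 0.47 (adjusted p = 1.85e-09).

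Bpgm (chromosome 6, 34476207 to 34505613) makes bisphosphoglycerate, the metabolite that lowers the oxygen affinity of haemoglobin. It ran from 3421 through a median of 4747 to 7947 in acute 2 Gy, against 141881, 192035 and 658044 in acute sham. The VarDR 2 Gy libraries had 142831, 68333, 89179, 101387 and 81382, against 102893, 139005 and 526044 in VarDR sham. The acute groups did not overlap and the VarDR groups did. The difference was -4.65 ± 0.50 (adjusted p = 5.41e-10).

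Hbb-bt, an adult beta globin chain (chromosome 7, 103812524 to 103813996), was 645, 1058 and 4594 in acute 2 Gy, against 26691, 65928 and 184749 in acute sham. It was 16071, 9569, 14897, 20397 and 10086 in VarDR 2 Gy, against 16006, 21826 and 86835 in VarDR sham. The acute groups were apart and the VarDR groups overlapped, and the difference was -4.45 ± 0.64 (adjusted p = 1.48e-06). Globin paralogs are near-identical and the RNA had been depleted of globin before sequencing, so the split between chains is uncertain. Haemoglobin levels and shares are of the globin RNA that remained, and how far each library was depleted was not tested. As a share of all signal, haemoglobin genes held 0.5 ± 0.36% in acute 2 Gy and 5.65 ± 2.3% in acute sham (SD, n = 6 each; exact two-sided permutation test, p = 0.00216, adjusted p = 0.013 over 12 tests). They held 2.11 ± 0.557% in VarDR 2 Gy (n = 5) and 3.57 ± 1.53% in VarDR sham (n = 6; exact permutation p = 0.039, adjusted p = 0.117).

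Other genes were also among the 12 lowest differences. Slc25a39, a carrier of glutathione into mitochondria, differed by -4.31 ± 0.49. Tent5c, a poly(A) polymerase acting on messenger RNA, differed by -4.43 ± 0.54. Aldh3b2, an aldehyde dehydrogenase, had the lowest difference of the ranked genes (-5.72 ± 0.61, adjusted p = 5.41e-10). Its level was 0, 0.408 and 2.99 in acute 2 Gy, against 92.6, 146 and 475 in acute sham, and 76.9, 29.8, 53, 99.2 and 27 in VarDR 2 Gy, against 35.9, 85.2 and 322 in VarDR sham. Pkd1l1, a member of the polycystin family, was 1.15, 9.04 and 15.7 in acute 2 Gy, against 94.3, 144 and 563 in acute sham. In VarDR 2 Gy it was 125, 66.5, 86.7, 89.3 and 128, against 55.3, 82 and 235 in VarDR sham. In both genes the acute groups were apart and the VarDR groups overlapped. Cdr2, an antigen known from paraneoplastic cerebellar degeneration, Ttc39a, a tetratricopeptide repeat protein, and Fam220a differed by -4.14 ± 0.51, -3.91 ± 0.68 and -3.85 ± 0.48.

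The microRNA gene Mir451a (chromosome 11, 78073170 to 78073241) was also among the 12. Its mature product is abundant in red cells and is matured by Argonaute cleavage without Dicer. The libraries were made from total RNA, so the row measures reads over the precursor and not the mature microRNA. Mir451b lies on the opposite strand of the same stretch. The libraries were stranded, but use of the strand in assigning reads was not checked, so reads of Mir451a and Mir451b may be mixed. The mature sequence is shown because it is the one regulatory RNA with a named product among the lowest differences, with its seed (bases 2 to 8) in capitals, from RefSeq on GRCm38.p6 at chr11:78073186-78073207 on the plus strand.
mmu-miR-451a: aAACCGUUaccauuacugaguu
The Mir451a row was 0, 1.99 and 5.02 in acute 2 Gy, against 47.7, 94.5 and 216 in acute sham. It was 110, 36.7, 28.8, 78.5 and 72.8 in VarDR 2 Gy, against 56.2, 99.2 and 232 in VarDR sham. All 6 acute 2 Gy libraries lay below the other 17, and the difference was -4.28 ± 0.67 (adjusted p = 8.1e-06).

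Erythroid transcription depends on GATA1, whose binding core is the word GATA. The word AGATAA, its form ending in G (AGATAG) and the forms of both that begin with T (TGATAA as well as TGATAG) were searched on both strands of the 250 bases upstream of each RefSeq gene start on GRCm38.p6. Of 18 red cell list genes with a promoter in the table, 11 (61.1%) held such a word, as did 75 of 215 genes with a lower acute response (34.9%), against 3264 of 13798 genes tested (23.7%). Where a gene had several promoters in the table, the one with the most matches was counted and shown, so genes with more starts had more chances to match. A match is a string of letters and not a bound site. The Alas2 promoter is shown as the one of the gene described first, at chrX:150547167-150547416 on the plus strand, with the GATA word (here TTATCT, the opposite strand of AGATAA) in capitals.
Alas2: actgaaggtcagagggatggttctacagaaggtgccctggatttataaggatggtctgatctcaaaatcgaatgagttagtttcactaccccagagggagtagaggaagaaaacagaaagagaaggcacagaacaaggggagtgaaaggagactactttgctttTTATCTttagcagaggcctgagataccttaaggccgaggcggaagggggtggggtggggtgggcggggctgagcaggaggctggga

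Some members of other lists also passed the threshold in the difference. Of 34 cell cycle genes, 4 had a lower acute response and 0 a higher one (median difference -0.18), against 1.39% and 0.194% of all genes. The 4 were E2f2, Esco2, Nusap1 and Ube2c. E2f2, a transcription factor of the cell cycle that also acts in red cell maturation, was 860, 1005 and 1685 in acute 2 Gy, against 5970, 9234 and 41411 in acute sham. It was 7451, 4847, 5232, 5745 and 4352 in VarDR 2 Gy, against 5302, 8150 and 29062 in VarDR sham. The acute groups alone were apart (difference -2.52 ± 0.51, adjusted p = 0.000998). Ube2c, a ubiquitin-conjugating enzyme of mitotic exit, differed by -3.34 ± 0.53 and Nusap1, a spindle protein, by -2.43 ± 0.54. Of 15 antioxidant genes 1 was lower, the glutathione peroxidase Gpx1 (-2.74 ± 0.50), and of 54 ribosomal protein genes 1 was lower, against 1.39% of all genes, Rplp0 (-1.07 ± 0.29, adjusted p = 0.0346). Rplp0 passed in 11 of the 23 fits that left out 1 library. Ube2l6, an enzyme that conjugates the ubiquitin-like ISG15 differed by -3.71 ± 0.47, and Hemgn, a nuclear protein of red cell precursors, by -2.64 ± 0.48. Both are members of the red cell list. Klf1, the erythroid transcription factor of the Krüppel family, was low in all groups and did not pass: 6.33, 17.8 and 27.6 in acute 2 Gy, against 16, 34.6 and 118 in acute sham (difference -1.49 ± 0.68, adjusted p = 0.459).

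**Figure D2:**
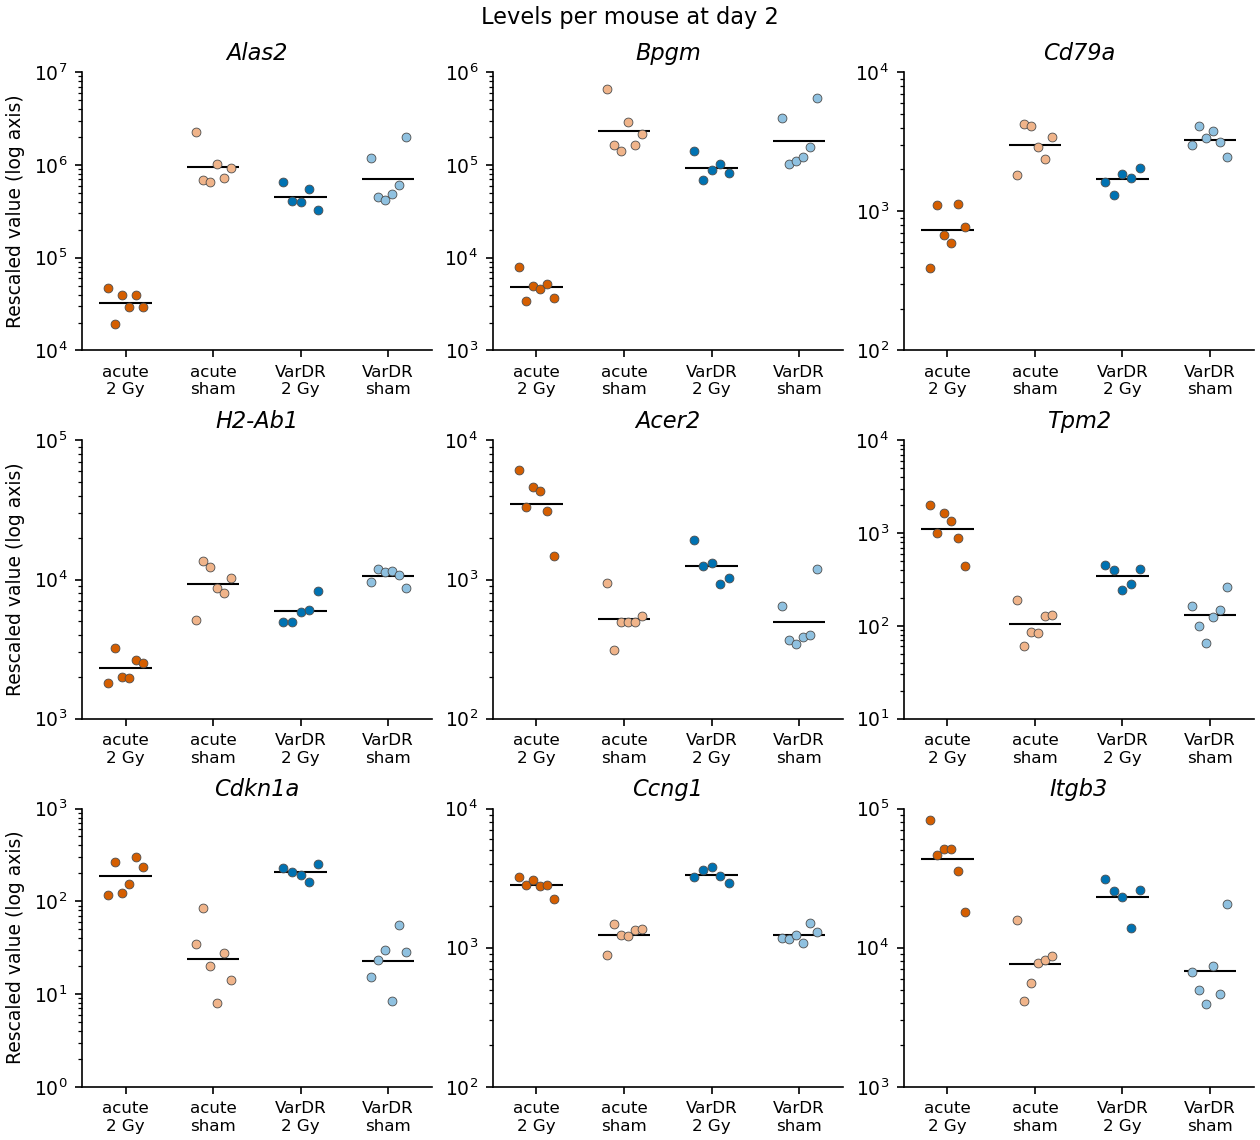
Each point is a mouse and the vertical axes are rescaled normalized read counts on a log scale, with black lines at the geometric mean of each group at day 2. The acute 2 Gy libraries of Alas2 and Bpgm sit below all others, while the VarDR 2 Gy libraries overlap their shams, Cd79a is lower than sham in both arms, and Cdkn1a and Ccng1 reach overlapping ranges in acute 2 Gy and VarDR 2 Gy.

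B cell genes fell in both arms, and fell further after acute 2 Gy. All 24 B cell genes fell in the acute arm (median -2.04) and 17 of 24 in the VarDR arm (median -0.86). In the difference 14 were lower and 0 higher (median -1.13). Over all genes, 7.46% fell after acute 2 Gy, 0.743% fell after VarDR 2 Gy and 1.39% were lower in the difference. The MHC class II genes, which present antigen to helper T cells and are expressed by B cells and other antigen-presenting cells, followed the same pattern. Of 11, 11 fell after acute 2 Gy, 10 fell after VarDR 2 Gy (median -0.92) and 8 were lower in the difference (median -1.13). Of the 22 genes of these lists that passed in the difference, 18 had passed in both arms and 4 in the acute arm alone. Of the 26 red cell and haemoglobin genes, 0 had passed in both arms, but their median VarDR response was -0.80, against -0.86 for these 22. Without the libraries rich in liver markers 9 B cell and 6 MHC class II genes passed, and on the deposited scale 5 and 2. In the fit of the 4 day 2 groups alone 6 and 3 passed.

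Cd79a (chromosome 7, 24897381 to 24902197), a signalling chain of the B cell receptor, was 394, 723 and 1128 in acute 2 Gy, against 1832, 3151 and 4214 in acute sham. It was 1637, 1318, 1859, 1750 and 2043 in VarDR 2 Gy, against 2462, 3240 and 4078 in VarDR sham. Neither irradiated group overlapped its shams, and the acute 2 Gy libraries were all below the VarDR 2 Gy ones. The acute response was -2.04 ± 0.19 (adjusted p = 1.4e-14), the VarDR response -0.94 ± 0.20 (adjusted p = 0.000876) and the difference -1.10 ± 0.27 (adjusted p = 0.0113). Cd79a missed the threshold in 4 of 12 other settings, with an adjusted p of up to 0.132.

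The B cell genes with the smallest p in the difference mark mature B cells. Fcer2a, the low-affinity IgE receptor CD23, was 116, 147 and 189 in acute 2 Gy, against 874, 1168 and 1832 in acute sham. It was 368, 680, 529, 662 and 593 in VarDR 2 Gy, against 800, 1120 and 1716 in VarDR sham, and neither irradiated group overlapped its shams (difference -1.98 ± 0.36, adjusted p = 0.000153). Ighd, the constant region of IgD, differed by -1.88 ± 0.31 (adjusted p = 1.81e-05) and Fcrl1, an Fc receptor-like protein, by -1.48 ± 0.31 (adjusted p = 0.00123). H2-Ob and H2-DMb2, which encode chains of the class II peptide-editing proteins, differed by -1.38 ± 0.26 and -1.38 ± 0.26. H2-Ab1, a class II beta chain, was 1816, 2255 and 3233 in acute 2 Gy, against 5157, 9466 and 13504 in acute sham. It was 4968, 4923, 5815, 6020 and 8323 in VarDR 2 Gy, against 8673, 11036 and 11991 in VarDR sham, with no overlap in either arm (difference -1.15 ± 0.24, adjusted p = 0.00107; 0.0541 on the deposited scale).

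**Figure D3:**
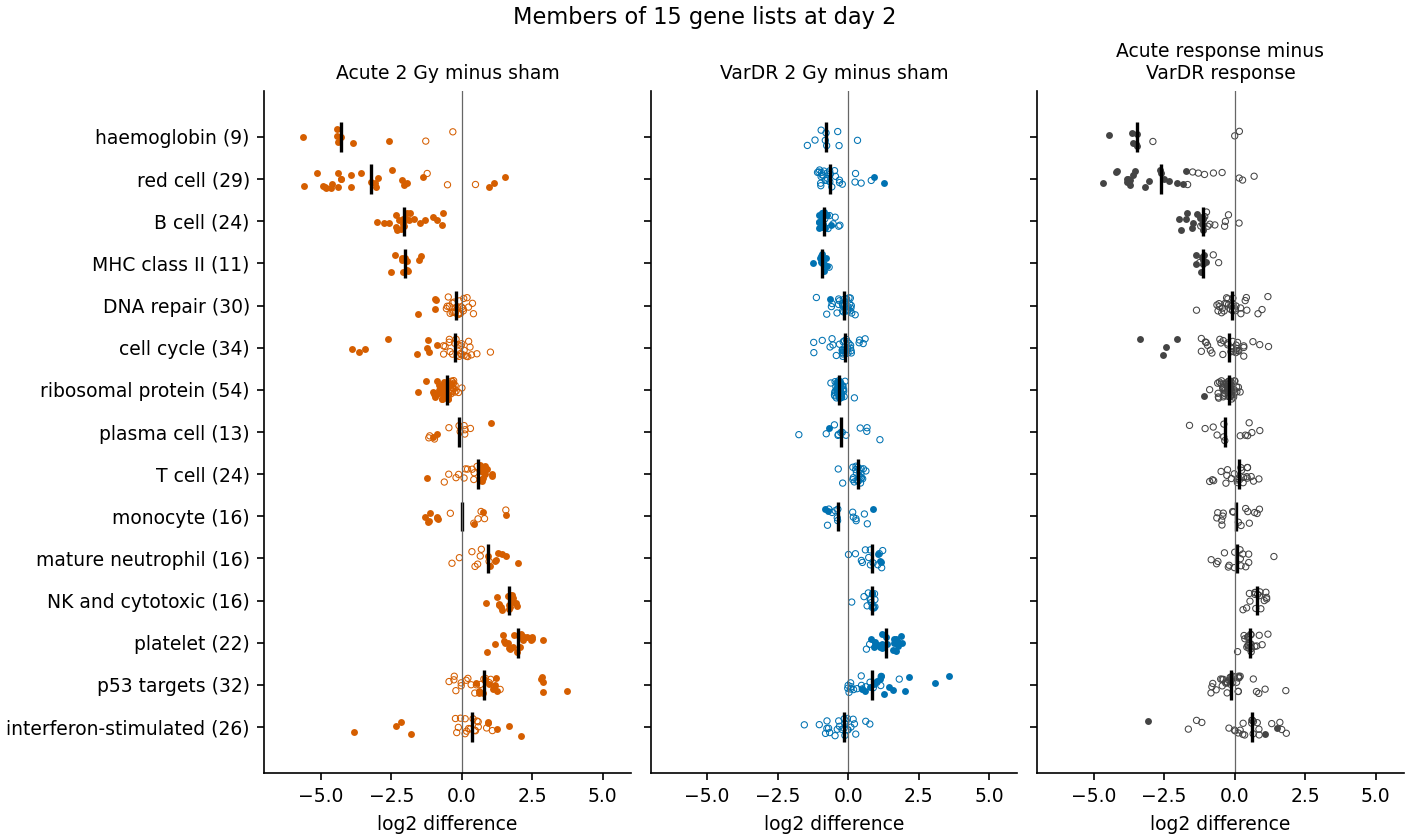
Each circle is a gene of the list named at the left, with the number tested in brackets, the horizontal axes are log2 differences, filled circles passed an adjusted p of 0.05 and black bars mark list medians. Haemoglobin and red cell genes lie far to the left in the acute panel, and their medians in the VarDR panel are -0.78 and -0.65. The p53 target medians are above 0 in both arms and -0.12 in the difference, and all 22 platelet genes lie above 0 in the difference (median 0.56).

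Of 32 p53 targets tested, 15 rose after acute 2 Gy (median 0.78), 14 rose after VarDR 2 Gy (median 0.83) and 0 passed in the difference, where 1.59% of all genes did (median -0.12, or 0.36 on the deposited scale, where 3 were higher, and 0.02 with library weights, where 2 were lower). In 8 of them both arms passed with the same sign and the 95% interval of the difference lay within 2-fold: Ccng1, Bax, Aen, Mdm2, Trp53inp1, Sesn2, Zmat3 and Ei24. Over all genes, 7.36% rose after acute 2 Gy, 2.52% rose after VarDR 2 Gy and 1.28% had such similar responses.

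Cdkn1a (chromosome 17, 29090976 to 29100727), the p21 inhibitor of cell cycle kinases, was 116, 193 and 304 in acute 2 Gy, against 7.94, 24 and 83.8 in acute sham. It was 226, 206, 192, 162 and 251 in VarDR 2 Gy, against 8.46, 26 and 55.5 in VarDR sham. Neither irradiated group overlapped its shams and the irradiated groups overlapped each other. The responses were 2.90 ± 0.57 after acute and 3.10 ± 0.60 after VarDR exposure, but the interval of the difference, -1.86 to 1.46, still allowed a difference of over 2-fold in either direction.

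Ccng1 (chromosome 11, 40748552 to 40755311), which encodes cyclin G1, had a narrower interval. It was 2244, 2833 and 3202 in acute 2 Gy, against 889, 1284 and 1475 in acute sham. It was 3233, 3591, 3802, 3265 and 2908 in VarDR 2 Gy, against 1074, 1204 and 1509 in VarDR sham. The acute response was 1.18 ± 0.11 (adjusted p = 1.1e-13) and the VarDR response 1.44 ± 0.12 (adjusted p = 1.02e-14), and the interval of the difference was -0.58 to 0.07. The difference was 0.23 on the deposited scale and -0.38 with library weights, where it passed (adjusted p = 0.0227).

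Bax, which permeabilizes mitochondria in apoptosis, rose by 1.09 ± 0.13 after acute and 1.16 ± 0.13 after VarDR 2 Gy (interval of the difference -0.44 to 0.30). Mdm2, the ubiquitin ligase that degrades p53, rose by 0.49 ± 0.13 and 0.51 ± 0.14 (interval -0.39 to 0.35). Aen, a nuclease of apoptosis, rose by 0.97 ± 0.22 and 1.12 ± 0.23, and Trp53inp1, a p53-binding stress protein, by 0.77 ± 0.11 and 0.61 ± 0.12. Zmat3, an RNA-binding target of p53, rose by 1.22 ± 0.29 and 1.28 ± 0.31. The remaining targets were less certain. Phlda3, an inhibitor of Akt, rose by 2.82 ± 0.26 after acute and 2.15 ± 0.27 after VarDR 2 Gy, with an interval of -0.08 to 1.41. Bbc3, the apoptosis inducer PUMA, rose by 1.23 ± 0.30 and 2.00 ± 0.31, with an interval of -1.63 to 0.08. Its VarDR 2 Gy libraries (772, 642, 540, 482 and 463) all lay above the acute 2 Gy ones (266, 329 and 437), without passing the test of the difference (adjusted p = 0.602). Trp53cor1, a noncoding RNA beside Cdkn1a, rose by 3.72 ± 0.69 and 3.58 ± 0.72 from sham medians of 1.64 and 1.28 (interval -1.85 to 2.13). Eda2r, a receptor of the tumour necrosis factor family, passed in the acute arm alone (2.84 ± 0.77, adjusted p = 0.00416; VarDR 1.02 ± 0.80, adjusted p = 0.678), and its interval was -0.39 to 4.03. Tigar, a regulator of glycolysis, passed in neither arm.

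**Figure D4:**
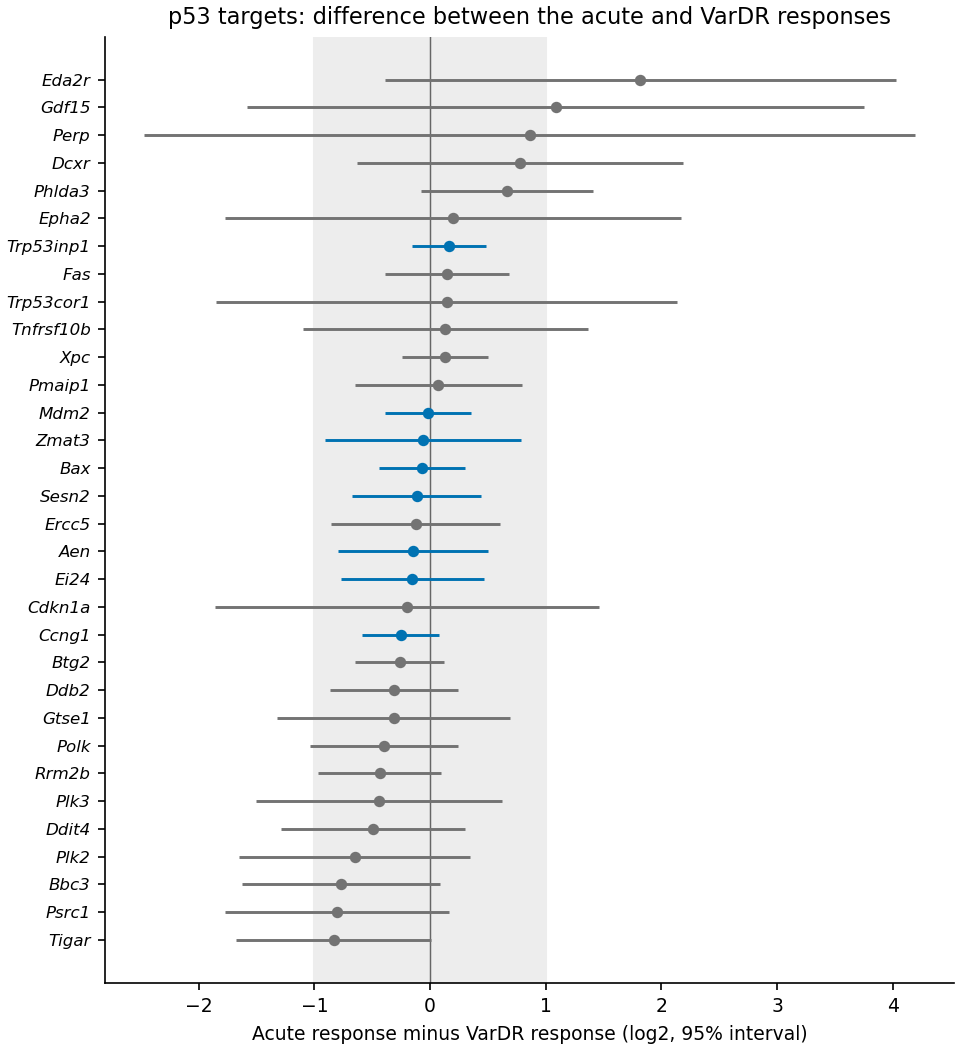
Points are the acute minus VarDR response of the 32 p53 targets on the log2 scale and lines are 95% intervals, and the grey band marks a 2-fold difference. The 8 blue genes passed in both arms with intervals inside the band, and intervals of low genes such as Perp, Eda2r and Trp53cor1 reach far outside it.

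The p53 decamer consensus, searched on both strands of the same 250-base promoters, was found in 7 of 23 p53 targets with a promoter in the table (30.4%) and in 1037 of 13798 genes tested (7.52%). It was found in 20 of 209 genes with similar responses (9.57%). Promoters were counted and chosen as for the GATA words, by the most matches per gene. Promoters of Cdkn1a (chr17:29090729-29090978, plus strand) and Ccng1 (chr11:40755287-40755536, minus strand) are shown from RefSeq on GRCm38.p6 because these targets rose in both arms, with the decamers in capitals.
Cdkn1a: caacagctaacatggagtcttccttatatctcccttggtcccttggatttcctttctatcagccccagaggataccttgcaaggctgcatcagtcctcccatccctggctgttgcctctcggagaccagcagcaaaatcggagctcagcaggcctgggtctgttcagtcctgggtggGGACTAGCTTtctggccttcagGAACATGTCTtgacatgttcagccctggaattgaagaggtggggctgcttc
Ccng1: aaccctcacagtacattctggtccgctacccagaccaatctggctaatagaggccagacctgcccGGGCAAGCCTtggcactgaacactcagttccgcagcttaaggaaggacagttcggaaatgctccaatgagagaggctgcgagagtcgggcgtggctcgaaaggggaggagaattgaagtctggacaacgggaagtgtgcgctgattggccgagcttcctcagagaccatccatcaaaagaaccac

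A rule for genes with similar responses was applied to all genes: an adjusted p under 0.05 with the same sign in both arms, and a 95% interval of the difference between -1 and 1 (log2). In all, 617 genes passed in both arms with the same sign (498 rose and 119 fell), which was 89.4% of the VarDR calls and 19.7% of the acute calls. Of these, 271 (43.9%; 1.28% of genes tested) met the rule, 231 rising and 40 falling, 35 differed between the arms, and for 311 the data decided neither way. A further 2514 genes passed after acute 2 Gy alone, but only 298 of them passed in the difference, so for the other 2216 a gap between the arms was not shown. The median interval of the difference spanned 1.29 to either side, so most genes could not meet the rule. Similar does not mean equal: most of the 231 that rose did so by more after acute 2 Gy. Some intervals left out 0, such as 0.189 to 0.895 for Cap1, which rose, and -0.942 to -0.117 for Myo1c, which fell. Cap1 and Myo1c were picked after their values were seen. The count was 39 with a bound of 1.5-fold, 137 without VarDR 2 Gy replicate 1, 167 without VarDR 2 Gy replicate 2, and 355 without the acute and VarDR shams named above.

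The genes named here as rising in both arms were the 10 for which the smaller of their acute and VarDR responses was largest. P2ry1, the platelet receptor for ADP, was 1081, 1856 and 3267 in acute 2 Gy, against 365, 518 and 728 in acute sham. It was 1393, 1181, 995, 854 and 1347 in VarDR 2 Gy, against 281, 344 and 797 in VarDR sham. Both irradiated groups lay above their shams (1.90 ± 0.20 and 1.53 ± 0.21, interval of the difference -0.20 to 0.95). Nckap1 and Abi2, subunits of the WAVE complex that drives actin branching, both rose. Nckap1 rose by 1.82 ± 0.22 after acute and by 1.63 ± 0.23 after VarDR 2 Gy, and the interval of the Abi2 difference lay within 2-fold. Itgb5, an integrin beta chain, rose by 1.64 ± 0.21 and 1.41 ± 0.22, and Fhl1, a LIM domain protein, by 1.71 ± 0.23 and 1.46 ± 0.24. Prkab2, a regulatory subunit of the AMP-activated kinase, rose by 1.85 ± 0.22 and 1.54 ± 0.23. Syt13, a synaptotagmin, Dglucy, the D-glutamate cyclase, Draxin, an axon guidance protein, and Tmem151b completed the 10, all between 1.48 and 1.79 after acute and 1.42 and 1.74 after VarDR 2 Gy.

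Platelet genes as a list rose in both arms: 22 of 22 after acute 2 Gy (median 1.99) and 20 of 22 after VarDR 2 Gy (median 1.35), with 0 passing in the difference (median 0.56). Over all genes these shares were 7.36%, 2.52% and 1.59%. Of the 22 platelet genes, 2 met the rule for similar responses. After quantile normalization 7 had a higher acute response and on the deposited scale 9. Itgb3 (chromosome 11, 104608000 to 104670476), the beta chain of the platelet fibrinogen receptor, was 18045, 48712 and 83314 in acute 2 Gy, against 4144, 7907 and 15735 in acute sham. It was 31324, 25723, 23271, 13830 and 25842 in VarDR 2 Gy, against 3932, 5840 and 20660 in VarDR sham, where the highest sham overlapped the irradiated libraries. The interval of its difference was -0.04 to 1.48. Thbs1, thrombospondin, and F2rl2, a protease-activated receptor, had differences of 0.98 ± 0.48 and 0.88 ± 0.35 (adjusted p = 0.508 and 0.319). Pf4, the platelet chemokine, passed after acute 2 Gy (1.19 ± 0.20) and missed after VarDR 2 Gy (0.65 ± 0.21, adjusted p = 0.0808), with an interval of -0.04 to 1.13.

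The 10 genes named as falling in both arms were chosen in the same way. Serpinb1a, an inhibitor of neutrophil proteases, was 230, 364 and 651 in acute 2 Gy, against 688, 1108 and 1567 in acute sham. It was 512, 362, 522, 602 and 848 in VarDR 2 Gy, against 917, 1156 and 1726 in VarDR sham. Neither irradiated group overlapped its shams, and the interval of the difference was -0.98 to 0.30. Rnase6, an antimicrobial ribonuclease, fell by 1.46 on the log2 scale after acute and by 1.10 after VarDR 2 Gy, and Tifa, an adaptor of NF-kB signalling, fell by 1.42 and 1.05. Cx3cr1, the fractalkine receptor of patrolling monocytes, fell by 0.89 and 0.82, and Plac8 fell by 0.81 and 0.94. Cd72, a co-receptor of B cells, was the single B cell gene that met the rule, falling by 0.86 and 1.02. Mbd4, a glycosylase that repairs deaminated methylcytosine, fell by 1.17 and 0.86. Anapc13, a subunit of the anaphase-promoting complex, Tpst1, a tyrosine sulfotransferase, and Napsa, an aspartic protease, fell by between 1.02 and 1.20 after acute 2 Gy and by between 0.83 and 0.86 after VarDR 2 Gy.

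Genes with a higher acute response were fewer and smaller in effect. Among the 12 highest were genes of the cytoskeleton, of lipid metabolism and of immune signalling. Tpm2 (chromosome 4, 43514711 to 43523765), a tropomyosin, was 442, 1179 and 1994 in acute 2 Gy, against 60.1, 106 and 189 in acute sham. It was 448, 402, 243, 282 and 407 in VarDR 2 Gy, against 65, 136 and 262 in VarDR sham. It rose in both arms, by 3.37 ± 0.27 and 1.39 ± 0.28, and the difference was 1.98 ± 0.39 (adjusted p = 0.000526). Acer2 (chromosome 4, 86874396 to 86934822), an alkaline ceramidase that is a p53 target in human cells, was 1481, 3828 and 6159 in acute 2 Gy, against 310, 497 and 938 in acute sham. It was 1913, 1256, 1306, 930 and 1031 in VarDR 2 Gy, against 341, 393 and 1188 in VarDR sham (difference 1.43 ± 0.34, adjusted p = 0.00993). For both genes the acute 2 Gy libraries cleared their shams, and the lowest of them overlapped the VarDR 2 Gy range. Acer2 missed the threshold in 2 of 12 other settings (adjusted p up to 0.182).

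Lgals3bp, a secreted galectin-binding glycoprotein, was 2368, 4439 and 5322 in acute 2 Gy, against 632, 726 and 1147 in acute sham. It was 1791, 1733, 1442, 1294 and 1995 in VarDR 2 Gy, against 598, 696 and 1537 in VarDR sham (difference 1.42 ± 0.30, adjusted p = 0.00169). All acute 2 Gy libraries exceeded all libraries of the other groups. Tnfsf14, the cytokine LIGHT, differed by 1.21 ± 0.27, P2rx7, an ATP-gated channel of immune cells, by 1.55 ± 0.35, and Twf1, an actin monomer-binding protein, by 1.20 ± 0.29. Tcp11l1 differed by 1.97 ± 0.47. Slc6a3, the dopamine transporter, and Bsn, a presynaptic scaffold, were low in blood and differed by 2.44 ± 0.60 and 2.34 ± 0.65. Both met the minimum mean of 50 for a named gene in acute 2 Gy alone, where Slc6a3 averaged 86.6, against 18.6 in acute sham, and Bsn 55.2, against 20.8 in acute sham, so their place in this ranking rests on that group. Bsn, Hist1h1b and Lancl3 were the least secure: they missed the threshold in 12, 13 and 16 of the 23 fits that left out 1 library. Hist1h1b, a linker histone, differed by 1.67 ± 0.46 and Lancl3, of the lanthionine synthetase-like family, by 1.43 ± 0.41 (adjusted p = 0.0478).

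Interferon-stimulated genes passed in the difference in both directions. Of 26 tested, 2 had a higher and 1 a lower acute response, against 0.194% and 1.39% of all genes. The median difference was 0.61, and 6 of 26 values were below 0. Ifit3, an antiviral protein, was 678, 1020 and 1184 in acute 2 Gy, against 253, 309 and 355 in acute sham. It was 185, 399, 396, 413 and 241 in VarDR 2 Gy, against 174, 292 and 381 in VarDR sham, so the acute 2 Gy libraries were above all others (difference 1.51 ± 0.35, adjusted p = 0.0067; 0.0707 without the libraries rich in liver markers). Zbp1, a sensor of Z-form nucleic acids, differed by 1.08 ± 0.27 (adjusted p = 0.0162; 0.0954 without VarDR 2 Gy replicate 1). Rsad2, the antiviral enzyme viperin, was 3430, 4616 and 7804 in acute 2 Gy, against 44002, 51183 and 185532 in acute sham. It was 40618, 23161, 27455, 32991 and 25899 in VarDR 2 Gy, against 23501, 39313 and 152972 in VarDR sham, where the groups overlapped. It differed by -3.06 ± 0.51 (adjusted p = 2.89e-05).

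NK and cytotoxic genes rose in 16 of 16 cases after acute 2 Gy (median 1.67) and in 1 of 16 after VarDR 2 Gy (median 0.86). Over all genes, 7.36% rose after acute 2 Gy, 2.52% rose after VarDR 2 Gy and 1.59% passed in the difference. Despite the contrast in calls, 0 of the 16 NK and cytotoxic genes passed in the difference (median 0.79). All 16 values of the difference were above 0 (lowest 0.30). On the deposited scale 11 passed and with library weights 3. Gzmb, the cytotoxic protease granzyme B, was 1212, 1886 and 2248 in acute 2 Gy, against 147, 494 and 1083 in acute sham. It was 1120, 1206, 1155, 987 and 467 in VarDR 2 Gy, against 399, 494 and 760 in VarDR sham, and the interval of the difference was 0.25 to 2.02 (adjusted p = 0.304). Tbx21, the transcription factor T-bet, and Il2rb, a chain of the interleukin receptor of NK cells, had differences of 1.11 ± 0.39 and 0.93 ± 0.36 (adjusted p = 0.186 and 0.302). Of 24 T cell genes 11 rose and 1 fell after acute 2 Gy, 0 passed after VarDR 2 Gy (median 0.36) and 0 passed in the difference. Cd3e, a chain of the T cell receptor complex, had a difference of 0.46 ± 0.37. Of 16 mature neutrophil genes 8 rose after acute and 3 after VarDR 2 Gy. Csf3r, the receptor for granulocyte colony-stimulating factor, rose by 1.17 ± 0.24 and 1.17 ± 0.25, with an interval of -0.68 to 0.69.

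The same contrast was taken on day 3 (2.8 Gy in both arms, 3 acute and 6 VarDR irradiated libraries) and day 5 (4.1 Gy, 6 and 6), which used other mice and other shams. Of the 335 genes, 332 had the same sign on day 3 and 240 (71.6%) passed with it, against 2.5% of all genes passing on that day (0.653% higher, 1.85% lower). On day 5, 326 had the same sign and 85 (25.4%) passed with it, against 2.66% of all genes (1.01% higher, 1.65% lower). None passed with the opposite sign on either day. How many of all genes had the same sign on both days was not counted. The 25 liver genes had a median difference of 8.12 on day 3 and 1.06 on day 5, against 3.29 on day 2, and 0 passed on any day. The part of liver RNA in the day 3 and day 5 results was not tested. The doses rose with the days, so time and dose cannot be told apart.

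The groups were followed over these days by their medians. Their genes were chosen by passing on day 2, which tends to enlarge the day 2 values, so a smaller median later does not by itself show a change. The 26 red cell and haemoglobin genes had a median difference of -3.56 on day 2, -4.82 on day 3 and -0.92 on day 5, and 26 passed on day 3 and 2 on day 5. The 22 B cell and MHC class II genes had a median difference of -1.18 on day 2, -1.64 on day 3 and -2.12 on day 5, and 21 and 17 passed. The 2 lists behind this pooled median differed on day 5: the whole B cell list had a median of -1.93, with 20 of 24 lower, and the whole MHC class II list had a median of -0.06, with 4 of 11 lower and 1 higher. Fcer2a had differences of -1.98, -3.15 and -4.01 on days 2, 3 and 5, while H2-Ab1 had -1.15, -1.14 and 0.19. Alas2 had -4.20, -6.30 and -1.48, with an adjusted p of 0.064 on day 5. When the day 5 difference was tested against the day 2 difference itself, 4 genes of 21124 passed (0.0189%; 0.0142% higher, 0.00473% lower). In Aldh3b2, Bpgm and Pkd1l1 the gap was smaller on day 5, by 4.28 ± 0.85, 3.61 ± 0.70 and 4.17 ± 0.71, and in the phosphatase gene Dusp1 it was lower, by -2.58 ± 0.53. The change of the other red cell and B cell genes between the days did not pass. Dusp1 was named after its value was seen. limma called 0 genes between the day 3 and the day 2 difference, and 811 had an unadjusted p under 0.05.

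**Figure D5:**
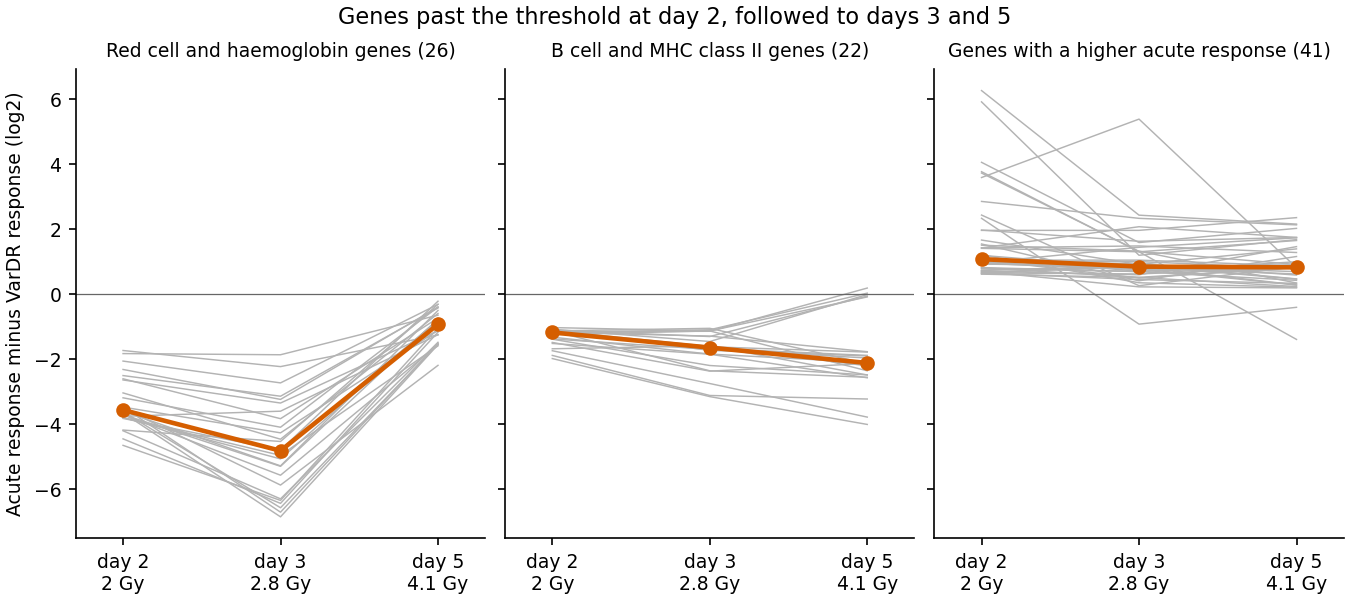
Grey lines are genes past the threshold on day 2, followed to days 3 and 5, and the vertical axis is the acute minus VarDR response on the log2 scale, with group medians in orange. The median of the 26 red cell and haemoglobin genes is -0.92 on day 5, that of the 22 pooled B cell and MHC class II genes is -2.12, and that of the 41 genes with a higher acute response is 1.08, 0.85 and 0.83 on the 3 days.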

How the data were processed

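Whole-blood RNA had been cleared of globin and ribosomal RNA and made into stranded total RNA libraries, per the labels' protocols. Per the submitters' processing notes, the tools included DESeq2, sleuth, kallisto 0.44.0 and bcl2fastq 2.19, with the GRCm38 build. The deposited values are a signal in normalized read counts, made by the authors. The heading of the table names another tissue, but its column names are the titles of the blood samples. Of 82 value columns 80 were used and 2 matched no sample. Of 50391 rows, 26 with date-like names (at most 0.471% of a column) were left out.

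Every column was rescaled to equal medians of ratios over 11349 genes above 0 in all libraries. A gene entered the fit (21124 did) where 3 or more libraries had a value of 10 or more. limma 3.58.1 (R 4.3.3) fitted log2(value + 1) over all 80 libraries in 14 groups, with a trended, robust prior, and adjusted p-values by Benjamini-Hochberg in each comparison. The share of wrong calls that the rescaling, the filter and the fit give together was not tested. Shares of signal were tested with exact permutation (two-sided, scipy 1.17.1).

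Named genes had a mean of at least 50 in a day 2 group and were no predicted genes, pseudogenes or receptor segments. They were the 12 highest and 12 lowest differences past the threshold, the 10 that rose and 10 that fell most with similar responses, the 3 members of each list with the smallest p, and 20 fixed genes. Members and lists were chosen with earlier results of these data known. Alternatives changed the filter, pseudocount, scaling, groups, library weights and libraries. A few genes that met the rule are not reported here.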

Additional observations from a re-analysis of the deposited data

Results flagged for a closer look

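The acute and VarDR responses at day 2 differed in 335 genes by the test of the difference itself, and the day 5 difference differed from the day 2 difference in 4. Single libraries stood far from the rest of their group in 37 of 360 groups of values, and chance alone gives about 1 in 20. Of these, 9 came from acute sham replicate 1, 6 from VarDR sham replicate 6 and 4 from VarDR 2 Gy replicate 5.

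Acute sham replicate 1 was highest in its group for Alas2 (2287023 rescaled normalized read counts), Ube2l6 (397544), Ube2c (12148), Thbs1 (31786), Lgals3bp (1147) and the liver marker share (1.36%). It was lowest for Mdm2 (672.8), Il2rb (969.2) and Hist1h1b (63.2). Acute sham replicate 3 was highest for Eda2r (6.192).

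VarDR sham replicate 6 was lowest for Tigar (47.23), Napsa (1544), Mdm2 (666.2) and Cd72 (468.6), and highest for Nckap1 (2233) and Syt13 (276.6). VarDR sham replicate 4 was lowest for Bsn (13.93), and VarDR sham replicate 5 was highest for the liver marker share (0.0488%).

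In acute 2 Gy, replicate 1 was highest for Tent5c (20754), Hemgn (260.7) and E2f2 (1685). Replicate 2 was lowest for Hbq1a (61.4), replicate 4 highest for Zmat3 (555.9) and replicate 5 highest for the haemoglobin share (1.21%). Replicate 6 was lowest for Lgals3bp (2368) and highest for the liver marker share (4.02%).

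In VarDR 2 Gy, replicate 1 was highest for Tent5c (257429), Bax (868.2) and Abi2 (1896). Replicate 2 was lowest for Napsa (869.7) and Tifa (184.7) and highest for F2rl2 (920.5), and replicate 3 was highest for P2rx7 (625.7). Replicate 5 was lowest for Mbd4 (118.2), Tbx21 (305.8) and Gzmb (467.4) and highest for the liver marker share (0.0381%).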

How the results depend on the processing

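No named gene past the threshold changed sign. The p53 target median (-0.12) was 0.36 on the deposited scale and 0.02 with library weights, and Ccng1, not past the threshold, was 0.23 on the deposited scale. The balance of 41 higher and 294 lower genes turned on the deposited scale, where 2438 passed in the difference (2213 higher, 225 lower), 6299 in the acute arm and 597 between the shams, and 91 had similar responses. With library weights 1437 passed in the difference (505 higher, 932 lower), 5928 in the acute and 2055 in the VarDR arm and 57 between the shams, and 965 had similar responses. With the 4 day 2 groups alone 202 passed (20 higher, 182 lower), 431 in the VarDR arm, and 116 had similar responses. The same groups scaled without red cell and haemoglobin genes gave 203 (20 higher, 183 lower), 431 and 118. Quantile normalization gave 119 higher genes and 156 genes called again on day 5. Between the shams, 1 gene passed with no filter, 1 with a pseudocount of 10 and 4 without the libraries rich in liver markers. A bound of 1.5-fold left 39 genes with similar responses. The causes were not tested.

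Leaving out 1 library at a time gave 274 to 426 genes in the difference (26 to 93 higher, 241 to 392 lower), 2798 to 3437 in the acute arm, 452 to 740 in the VarDR arm, 0 to 0 between the shams and 137 to 405 with similar responses. The acute minus sham liver share was 0.27 to 1.08 percentage points, and its exact permutation test passed without acute sham replicate 1 alone. Of 43 named genes past the threshold, 29 stayed past it in every setting, and 98 of 1502 values missed it. Of 43 not past it, 16 of 1505 values passed. No paired analysis was possible because the sample titles are serial names with no replicate numbers that the groups share. The depth in reads is unknown, so its limit on low genes cannot be given.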

Other observations

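Ribosomal protein genes were lower in the acute arm in 33 of 54 cases (median -0.51, log2) and in 0 of 54 after VarDR 2 Gy (median -0.31), with 1 passing in the difference (median -0.21). Histone genes rose in 8 of 20 cases after acute 2 Gy and in 0 after VarDR 2 Gy, with 1 passing in the difference (median 0.89). The histone genes also had a median of -0.66 between the shams (acute minus VarDR), where 0 genes passed, and the shams of Hist1h3a did not overlap. Monocyte genes moved in both directions, with 3 higher and 7 lower after acute 2 Gy and 1 higher and 2 lower after VarDR 2 Gy, and 0 of 16 passed in the difference (median 0.05). Of 30 DNA repair genes 4 fell after acute 2 Gy, 1 fell after VarDR 2 Gy and 0 passed in the difference. Over all genes, 7.36% rose and 7.46% fell after acute 2 Gy, and 2.52% rose and 0.743% fell after VarDR 2 Gy. In the difference 1.59% of all genes passed, so 0 in lists of this size is near the share of all genes.

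The noncoding 7SL RNA of the signal recognition particle held 25.8 ± 4.76% of the signal in acute 2 Gy and 39.8 ± 7.35% in acute sham (SD, n = 6 each; exact two-sided permutation test, adjusted p = 0.0173 over 12 tests). It held 44.9 ± 7.23% in VarDR 2 Gy (n = 5) and 42.4 ± 6.1% in VarDR sham (n = 6; exact permutation, adjusted p = 0.63). The mitochondrial ribosomal RNA mt-Rnr2 held 3.25 ± 0.744% in acute 2 Gy and 1.39 ± 0.255% in acute sham (n = 6 each; exact permutation, adjusted p = 0.013). It held 1.44 ± 0.138% in VarDR 2 Gy (n = 5) and 1.23 ± 0.218% in VarDR sham (n = 6; exact permutation, adjusted p = 0.182). The RNA had been cleared of ribosomal RNA before sequencing, and the part of that step in the mt-Rnr2 shares was not tested. The difference between the arms in the 7SL and mt-Rnr2 shares was not tested.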
